A study of Mus musculus with 8 samples.

Results

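Hox genes encode homeodomain transcription factors. The genes measured here were the rows of the deposited expression table whose symbol was Hox, a cluster letter from a to d and a number. Of 27249 genes in the table, 19 met this rule. RefSeq lists 39 mouse Hox genes, and the 20 without a row were not analysed here. By cluster, 8 of the 19 were in HoxA, 9 in HoxB, 1 in HoxC (Hoxc6) and 1 in HoxD (Hoxd4). The selection used names and no measured value.

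The cells were smooth muscle cells cultured directly from mouse vessels, in 4 groups of 2 libraries each. Such cells contract the vessel wall. The first group overexpressed THOC5, part of the THO complex for mRNA processing and export, in osteogenic medium. The second overexpressed green fluorescent protein (GFP) in osteogenic medium. The third overexpressed THOC5 in growth medium, and the fourth GFP in growth medium. The labels give the GFP cells as wild type. The series design describes the osteogenic treatment as inorganic phosphate (Pi) for 6 days, which is used to model vascular calcification. The sources used here give no artery of origin, passage, animal age or sex, and no promoter or vector. The labels do not say that the 2 libraries of a group came from separate cultures, so each p-value reflects only how far these libraries spread, which may be technical.

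Hox genes lie in 4 clusters, and their order along the chromosome matches the order of the body regions in which they act. The low-numbered genes pattern anterior regions such as the hindbrain and pharyngeal arches, and the high-numbered genes pattern the trunk, limbs and tail. Genes with the same number in different clusters are paralogues. Hox proteins bind DNA with PBX and MEIS partners, Polycomb and Trithorax complexes maintain their expression states, and retinoic acid induces the anterior genes. Smooth muscle cells and fibroblasts from different vessels and body sites keep different Hox patterns in culture.

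The results turned on Hoxa3 and Hoxb3, the 2 measured members of paralogue group 3, and on Hoxb9. The homeobox of Hoxb9, the part of the coding sequence that encodes the DNA-binding domain, is shown because Hoxb9 was the single Hox gene called higher in GFP cells in osteogenic medium. It is 180 bases of the coding strand, 5′ to 3′, from the GENCODE M21 transcripts. The capitals mark the 18 bases that encode the conserved motif of the recognition helix, which contacts the major groove of DNA.
Hoxb9: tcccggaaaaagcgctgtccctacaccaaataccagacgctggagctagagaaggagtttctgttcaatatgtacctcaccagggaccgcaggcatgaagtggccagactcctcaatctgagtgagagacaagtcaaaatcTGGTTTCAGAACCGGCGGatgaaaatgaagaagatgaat
Over whole transcripts, the longest run of bases shared exactly by Hoxa3 and Hoxb3 was 33. The longest between any 2 members was 52 bases, between Hoxa6 and Hoxb4. The sources used here give neither the read length nor the treatment of reads with several matches.

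Values are normalized counts, which are the reads of a gene divided by a size factor of the library. The libraries held between 7058681 and 10581042 reads. A count of 0 allows up to 3 reads, or between 2.59 and 3.99 normalized counts by library, for counting error only. Thoc5 itself had 1780 and 1937 normalized counts in THOC5 cells in osteogenic medium, against 649.5 and 615.4 in GFP cells in osteogenic medium. In growth medium it had 2155 and 1406 in THOC5 cells, against 458.0 and 470.6 in GFP cells. The THOC5 libraries were above the GFP libraries in both media. On the first principal component of all genes, which held 32.6% of the variance, the libraries of GFP cells in osteogenic medium lay at 84.2 and 65.9. The other 6 libraries lay between -34.8 and -18.4.

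The Hox genes with a row ran up to group 9, and the highest levels per kilobase of merged exons lay in the middle of HoxB. Levels between genes were compared per kilobase of merged exons, as a mean over the 8 libraries. Hoxb4, which in mice supports the self-renewal of blood stem cells, stood highest at 170 normalized counts per kb. Hoxb5 followed at 135 and Hoxb6 at 107. Hoxb4 averaged 186 per kb in THOC5 osteogenic, 160 in GFP osteogenic, 168 in THOC5 growth and 166 in GFP growth libraries. On this length it was the highest member in all 4 groups.

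In HoxA the highest levels per kilobase were those of Hoxa2 at 70.0, Hoxa3 at 68.9 and Hoxa5 at 57.2. The order of Hoxa2 and Hoxa3 differed between groups. Hoxa3 had 81.1 and Hoxa2 73.3 per kb in THOC5 osteogenic libraries, 38.4 and 50.7 in GFP osteogenic, 78.5 and 76.5 in THOC5 growth, and 77.7 and 79.5 in GFP growth libraries. Hoxa4 had 51.2 per kb. In HoxB, Hoxb3 had 62.4 per kb, Hoxb8 37.0, Hoxb7 34.5, Hoxb2 21.1 and Hoxb9 5.31. The level of a gene with several transcripts depends on the length used. With the longest transcript in place of merged exons, Hoxa3 had 160 per kb and Hoxb3 83.2 per kb. On that length Hoxa3 lay above Hoxb4 in 3 of the 4 groups, with 188 against 186 per kb in THOC5 osteogenic, 182 against 168 in THOC5 growth and 180 against 166 in GFP growth libraries, and below it in GFP osteogenic libraries, with 89.2 against 160.

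The remaining 6 members had a mean under 10 normalized counts. Hoxa6 had 24 reads over all 8 libraries, Hoxa7 14, Hoxa9 4 and Hoxb1 3. Hoxc6 and Hoxd4 had 2 reads each. Hoxc6 was seen only in GFP cells in osteogenic medium, with 1 read in each library, which lies within the limit that a count of 0 allows. Signal in HoxA thus stepped from 57.2 per kb at Hoxa5 to 3.29 at Hoxa6, whereas signal in HoxB continued at 37.0 per kb at Hoxb8.

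**Figure D1:**
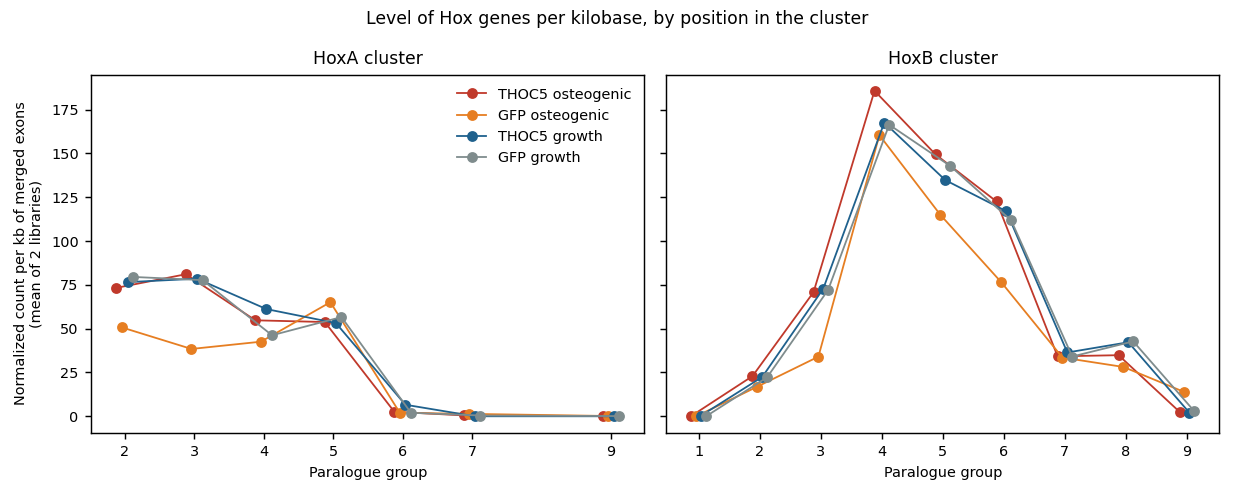
Normalized count per kilobase of merged exons (vertical axis, mean of 2 libraries) against paralogue group (horizontal axis) in the HoxA and HoxB clusters, for 4 groups. Hoxb4 is the peak of HoxB, the HoxA signal ends after Hoxa5, and GFP cells in osteogenic medium lie lowest at Hoxa3 (38.4 per kb) and Hoxb3 (34.0 per kb) and highest at Hoxb9 (13.8 per kb).

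The first comparison asks what osteogenic medium did to these genes in GFP cells. Hoxa3 and Hoxb3 fell about equally, Hoxa2, Hoxb6 and Hoxb8 fell by less, and Hoxb9 rose. A gene is called here when limma gave it a Benjamini-Hochberg adjusted p under 0.05 over all 22575 genes tested. Of the 19 members 16 were tested, and 6 were called, against 20.8% of all genes. By direction 1 was higher and 5 were lower, against 10.3% and 10.6% of all genes. Among all genes with a mean of at least 10 normalized counts, 33.4% were called. All 6 called Hox genes were among the 13 with such a mean, which Hoxb9 reached only through the GFP osteogenic libraries. The median log2 change of the 16 was -0.22, against 0.00 over all genes. The authors' deposited table, with its own test, called 1 Hox gene higher and 4 lower in this comparison. In bulk RNA, fewer cells of a type and less RNA per cell cannot be told apart.

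Hoxa3 specifies derivatives of the third pharyngeal arch and pouch, among them thymus, parathyroid and carotid body. It had 222 and 240 normalized counts in GFP cells in osteogenic medium, against 417 and 517 in GFP cells in growth medium. Both osteogenic libraries lay below both growth libraries. The log2 change was -1.01 ± 0.14 (SE), a 2.01-fold lower level, with a limma adjusted p of 0.00045. Fold changes are on the scale of log2 of the normalized count plus 1, which understates changes of low genes.

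Hoxb3, its paralogue, acts in hindbrain and pharyngeal patterning. It had 152 and 137 normalized counts in GFP cells in osteogenic medium, against 301 and 312 in GFP cells in growth medium. The groups did not overlap. The log2 change was -1.08 ± 0.12, a 2.12-fold lower level (limma adjusted p = 0.000125).

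Hoxb9, which acts with its group 9 paralogues in the thoracic skeleton and mammary gland of mice, moved the other way. It had 42.4 and 28.6 normalized counts in GFP cells in osteogenic medium, or 49 and 32 reads, against 6.99 and 7.98 in GFP cells in growth medium, or 6 reads in each. Its mean over the 8 libraries passed 10 only through the GFP osteogenic libraries. The groups did not overlap, though the 2 osteogenic libraries differed from each other by more than the growth libraries did. The log2 change was 2.08 ± 0.42 (limma adjusted p = 0.0047). Without replicate 1 of GFP osteogenic or replicate 1 of GFP growth cells this change was no longer called, with an adjusted p of up to 0.0751.

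Hoxa2, the selector gene of the second pharyngeal arch, had 75.2 and 105 normalized counts in GFP cells in osteogenic medium, against 139 and 144 in GFP cells in growth medium. Its log2 change was -0.66 ± 0.17 (limma adjusted p = 0.0166). Hoxb8, known in mice for its role in microglia and grooming behaviour, had 85.6 and 62.6 in osteogenic medium, against 110 and 116 in growth medium. Hoxb6, expressed in lateral mesoderm of the mouse embryo, had 147 and 153 in osteogenic medium, against 206 and 233 in growth medium. None of these 3 genes overlapped between the groups. The changes were -0.61 ± 0.19 for Hoxb8 and -0.54 ± 0.17 for Hoxb6, with limma adjusted p of 0.0458 and 0.0456, close to the threshold.

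The genes next to group 3 on the posterior side did not pass the test. Hoxa4 had 61.4 and 74.2 normalized counts in osteogenic medium, against 67.6 and 79.8 in growth medium, and Hoxb4 410 and 413 against 414 and 440. Hoxa5 had 126 and 118 in osteogenic medium, against 86.2 and 126 in growth medium. Hoxb5 had 294 and 346 in osteogenic medium, against 371 and 425 in growth medium, with an adjusted p of 0.073. The log2 changes of these genes were -0.12 ± 0.17 for Hoxa4, -0.05 ± 0.10 for Hoxb4, 0.22 ± 0.21 for Hoxa5 and -0.31 ± 0.11 for Hoxb5. On the anterior side, Hoxb2, a hindbrain gene, had 53.6 and 64.4 in osteogenic medium, against 79.2 and 75.8 in growth medium, with a limma adjusted p of 0.149. It did not overlap between the media, while Hoxb7, with 61.4 and 42.0 against 45.4 and 59.8, did.

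By position, the 5 tested genes of groups 1 to 3 had log2 changes from -1.08 to -0.39, and 3 were called lower. The 9 tested genes of groups 4 to 8 had a median of -0.05, and 2 were called lower, while 10.6% of all genes were called lower. In group 9, Hoxa9 had 4 reads in all and was not called. Of the 16 tested, 11 did not overlap between the media, 2 above and 9 below, against 56.6% of all genes tested. The 2 above were Hoxb9 and Hoxa7, which had 14 reads over all 8 libraries. The count of calls fell to 2 without replicate 1 of GFP osteogenic cells or without replicate 1 of GFP growth cells, and to 3 without replicate 2 of GFP growth cells. Hoxa3 and Hoxb3 kept their calls in these fits, with adjusted p of at most 0.0298 and 0.0147.

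**Figure D2:**
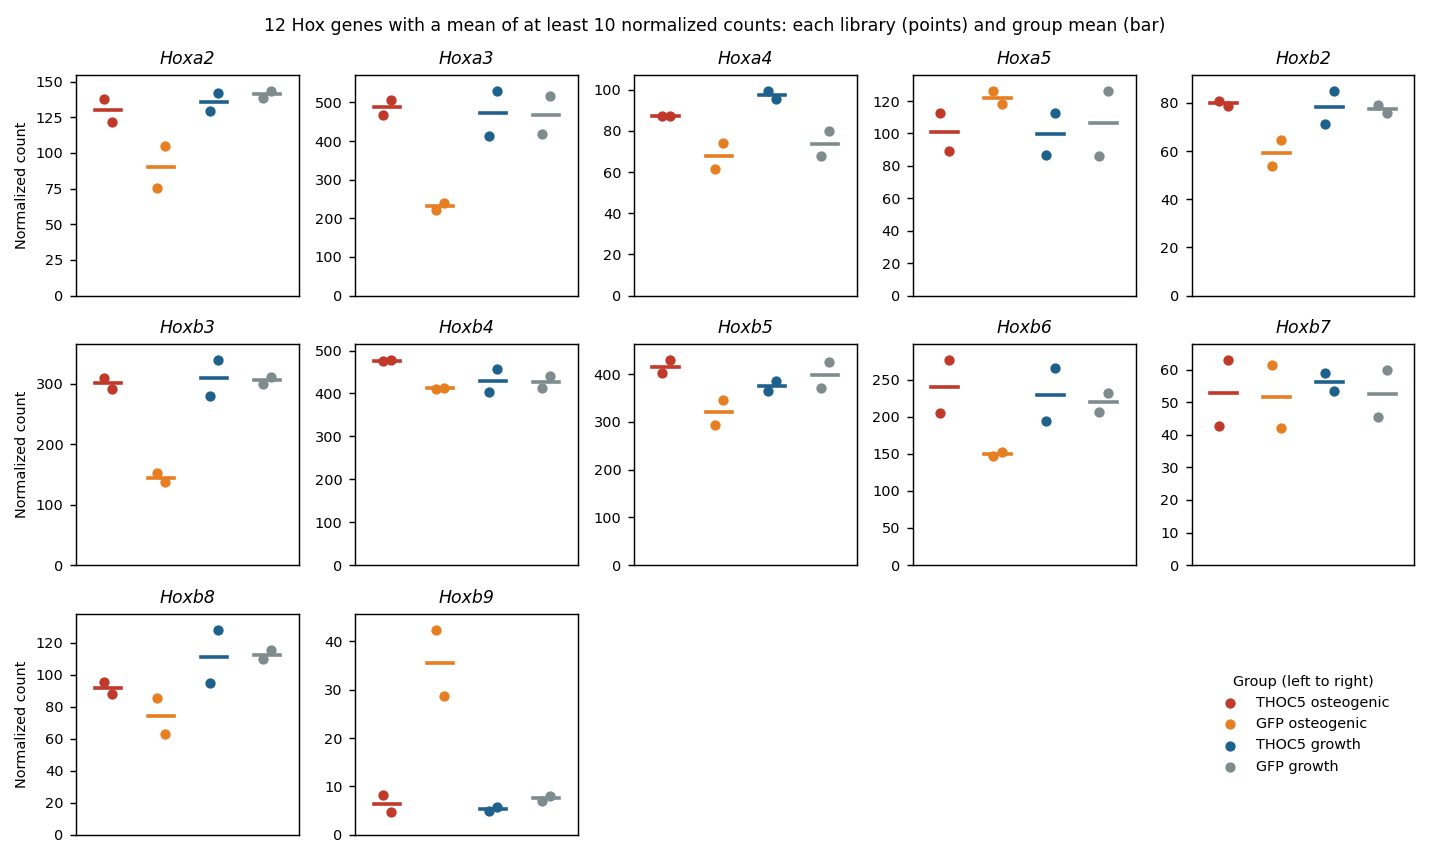
Normalized count (vertical axis, from 0) of 12 Hox genes with a mean of at least 10, with each library as a point and the group mean as a bar. The GFP osteogenic points lie below all other points for Hoxa3 (222 and 240) and Hoxb3 (152 and 137) and above all others for Hoxb9 (42.4 and 28.6).

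The same question in THOC5 cells gave no call. Of the 16 tested genes 0 passed limma's test, against 0.54% of all genes, and 0 passed edgeR's or DESeq2's test. At an unadjusted p under 0.05, limma gave 1 gene, Hoxa7, and edgeR and DESeq2 gave 0. Hoxa7 had 1 and 2 reads in osteogenic medium and 0 and 0 in growth medium, within the limit that a count of 0 allows. Hoxa3 had 468 and 507 normalized counts in THOC5 cells in osteogenic medium, against 414 and 530 in THOC5 cells in growth medium. Hoxb3 had 310 and 292 in osteogenic medium, against 280 and 339 in growth medium. Hoxb9 had 8.18 and 4.69 in osteogenic medium, against 4.83 and 5.73 in growth medium. All 3 genes overlapped between the media. Of the 16 tested 5 did not overlap, among them Hoxa6 and Hoxa7 with few reads, against 34.8% of all genes tested. The log2 changes were 0.06 ± 0.14 for Hoxa3, -0.03 ± 0.12 for Hoxb3 and 0.21 ± 0.42 for Hoxb9.

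The next comparison asks how THOC5 cells differed from GFP cells in osteogenic medium. It shares the GFP osteogenic libraries with the medium response of GFP cells, so the 2 comparisons are not independent. Of the 16 tested genes 7 were called, 6 higher and 1 lower in THOC5 cells, against 22% of all genes, 11.3% higher and 10.7% lower. The share was 35.6% among all genes with a mean of at least 10 normalized counts. All 7 called Hox genes were among the 13 with such a mean, which Hoxb9 reached only through the GFP osteogenic libraries. The median log2 difference was 0.37, against 0.00 over all genes. The authors' deposited table called 3 Hox genes higher and 1 lower.

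Hoxa3 had 468 and 507 normalized counts in THOC5 osteogenic libraries, against 222 and 240 in GFP osteogenic libraries. Hoxb3 had 310 and 292, against 152 and 137. THOC5 libraries lay above GFP libraries for both paralogues. The log2 differences were 1.07 ± 0.14 for Hoxa3 (2.11-fold, limma adjusted p = 0.000271) and 1.05 ± 0.12 for Hoxb3 (2.08-fold, limma adjusted p = 0.000135).

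Hoxb9 had 8.18 and 4.69 normalized counts in THOC5 osteogenic libraries, against 42.4 and 28.6 in GFP osteogenic libraries. The log2 difference was -2.31 ± 0.42, a 4.96-fold lower level in THOC5 cells (limma adjusted p = 0.0024). It was the only Hox gene called lower. Its call, and those of Hoxa3 and Hoxb3, held in all 18 alternative fits of this comparison. Among these fits was a filter on a mean of at least 10, which Hoxb9 met only through its GFP osteogenic values.

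The genes called higher also included Hoxb6, Hoxa2 and Hoxb5. Hoxb5, a gene of vagal neural crest development, had 403 and 429 normalized counts in THOC5 osteogenic libraries, against 294 and 346 in GFP osteogenic libraries, a log2 difference of 0.38 ± 0.11 (limma adjusted p = 0.0316). The groups did not overlap. Hoxb6 had 205 and 276, against 147 and 153, a log2 difference of 0.66 ± 0.17 (limma adjusted p = 0.0175). Hoxa2 had 138 and 122, against 75.2 and 105, a log2 difference of 0.54 ± 0.17 (limma adjusted p = 0.0397). Here too the THOC5 libraries lay above both GFP libraries.

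Calls other than those of Hoxa3, Hoxb3 and Hoxb9 depended on the scaling and on single libraries. With libraries scaled to their totals, which shifts the median of all genes by -0.16 in this comparison and by 0.13 in the medium response of GFP cells, 3 Hox genes were called, 2 higher and 1 lower. Of all genes, 1662 were then called higher and 4063 lower, against 2550 and 2413 without that scaling. The count was also 3 without replicate 2 of THOC5 osteogenic cells or without replicate 1 of GFP osteogenic cells, and 4 without replicate 1 of THOC5 osteogenic cells. In all, 13 of the 16 tested genes did not overlap, 10 above and 3 below, against 59.4% of all genes tested. The 3 below included Hoxa7 with few reads.

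In growth medium, no Hox gene differed between THOC5 and GFP cells by limma's test, and 0 of 16 were called by edgeR or DESeq2. Thoc5 was the single gene called among all tested, 0.00443% of them. At an unadjusted p under 0.05, limma and edgeR each gave 1 gene, Hoxa4, and DESeq2 gave 0. Hoxa4, which acts in cervical vertebra patterning, had 99.4 and 95.5 normalized counts in THOC5 growth libraries, against 67.6 and 79.8 in GFP growth libraries, with a log2 difference of 0.40 ± 0.17 and an adjusted p of 0.906 in limma. Hoxa3 and Hoxb3 both differed by 0.01, with standard errors of 0.14 and 0.12. The libraries of the 2 kinds of cells overlapped for Hoxa3 and Hoxb3 and not for Hoxa4. In all, 4 of 16 did not overlap, among them Hoxa6 and Hoxa7 with few reads, against 31.3% of all genes tested.

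The difference between the medium responses of THOC5 and GFP cells was tested directly as an interaction. It was called for 2 of 16 Hox genes, against 9.22% of all genes. The response of THOC5 cells minus that of GFP cells was 1.06 ± 0.19 on the log2 scale for Hoxa3 (limma adjusted p = 0.0076) and 1.05 ± 0.17 for Hoxb3 (limma adjusted p = 0.0043). For Hoxb9 it was -1.87 ± 0.59 and not called (limma adjusted p = 0.0757). Without replicate 1 or replicate 2 of GFP growth cells neither paralogue was called, with adjusted p reaching 0.0931 for Hoxa3 and 0.0678 for Hoxb3. Without replicate 2 of THOC5 osteogenic cells or replicate 1 of GFP osteogenic cells only Hoxb3 was called.

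The summed Hox signal and its makeup differed in the same libraries. The 19 members summed to 2526 and 2620 normalized counts in THOC5 osteogenic, 1805 and 1856 in GFP osteogenic, 2301 and 2707 in THOC5 growth, and 2327 and 2640 in GFP growth libraries. The GFP osteogenic sums lay below all others. Paralogue group 3 made up 30.6% ± 0.2 of the sum in THOC5 osteogenic, 20.5% ± 0.3 in GFP osteogenic, 31.1% ± 1.4 in THOC5 growth and 31.1% ± 0.4 in GFP growth libraries (SD, n = 2 each). Groups 1 and 2 together made up 12.0% ± 0.5, 11.7% ± 1.5, 12.5% ± 0.5 and 12.5% ± 0.4 in the same order, so the lower share of anterior genes in GFP osteogenic libraries lay in group 3. Group 9 made up 0.36% and 0.18% in THOC5 osteogenic, 2.44% and 1.54% in GFP osteogenic, 0.21% and 0.21% in THOC5 growth, and 0.35% and 0.30% in GFP growth libraries. These shares were not tested.

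**Figure D3:**
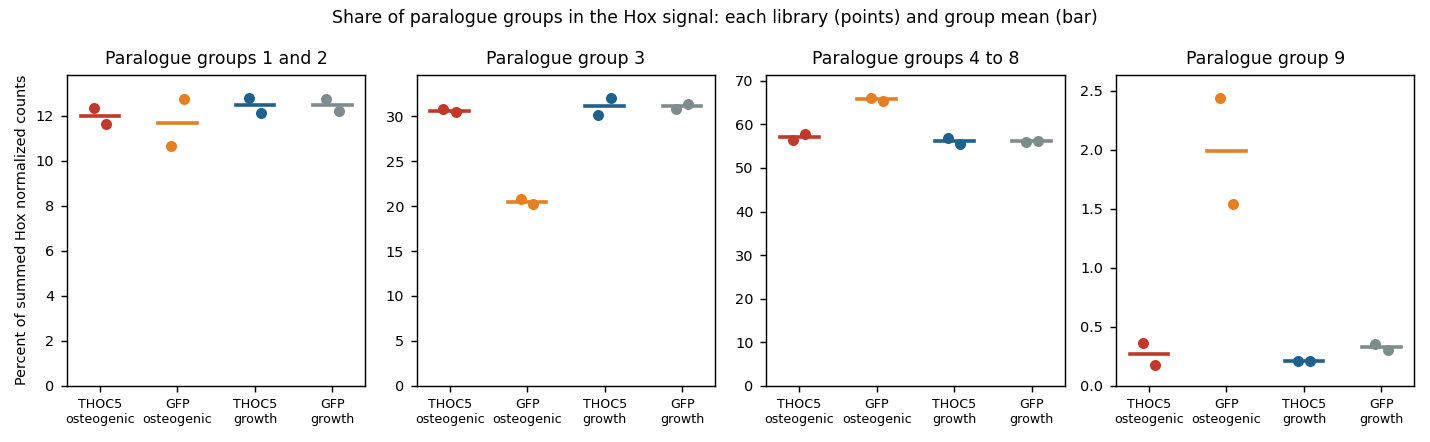
Share of the summed Hox normalized counts (vertical axes, percent, from 0) taken by paralogue groups 1 and 2, group 3, groups 4 to 8 and group 9, with each library as a point and the group mean as a bar. The GFP osteogenic libraries lie below all others in group 3 (20.7% and 20.3%) and above all others in groups 4 to 8 (66.2% and 65.4%) and group 9 (2.44% and 1.54%).

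Other transcripts inside the clusters were measured too. On GRCm38, the assembly that mm10 denotes and that the submitters' processing notes name, the HoxA cluster on chromosome 6 held 9 other genes of the table, and the HoxB cluster on chromosome 11 held 6. Hoxaas2, a noncoding transcript between Hoxa2 and Hoxa3 on the opposite strand, had 274 and 300.4 normalized counts in THOC5 osteogenic, 68.3 and 94.8 in GFP osteogenic, 286 and 346 in THOC5 growth, and 270.4 and 283 in GFP growth libraries. The GFP osteogenic libraries lay far below all others. Its log2 change with osteogenic medium in GFP cells was -1.77 ± 0.16 (limma adjusted p = 2.91e-05), larger than that of any HoxA member called.

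5730596B20Rik, which starts further along HoxA on the same strand as Hoxaas2 and which GENCODE M21 annotates as protein coding, fell to 78.7 and 106 normalized counts in GFP osteogenic libraries, against 183 and 215 in GFP growth libraries. Its log2 change was -1.11 (limma adjusted p = 0.000517). In HoxB, Gm11536, inside the span of Hoxb3 on the opposite strand, had 19.0 and 18.8 in GFP osteogenic libraries, against 38.5 and 54.5 in GFP growth libraries, a change of -1.23 (limma adjusted p = 0.0047). Hoxb5os, antisense to Hoxb5, had 45.8 and 45.6, against 74.6 and 70.5, a change of -0.65 (limma adjusted p = 0.0307). Each of these genes was also called higher in THOC5 than in GFP osteogenic libraries, with log2 differences of 1.82 for Hoxaas2, 1.18 for 5730596B20Rik, 1.25 for Gm11536 and 0.75 for Hoxb5os. Hoxb5os lost its call in 9 of 18 alternative fits of the GFP response and in 4 of 18 of this comparison. Gm11536 lost its call in 1 fit of each, and Hoxaas2 and 5730596B20Rik kept theirs. The library kit did not mark strand, so reads from overlapping exons cannot be told apart. Hoxaas2 overlaps 503 bases (8.36%) and 5730596B20Rik 292 bases (4.86%) of the Hoxa3 exons, Hoxb3os overlaps 2250 bases (52.9%) of the Hoxb3 exons, and Hoxb5os 100 bases (3.59%) of the Hoxb5 exons.

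Hoxb3os, the antisense gene over Hoxb3, was itself low. It had 27.3 and 40.4 normalized counts in THOC5 osteogenic, 21.6 and 20.6 in GFP osteogenic, 29.0 and 24.8 in THOC5 growth, and 32.6 and 37.2 in GFP growth libraries. It was not called in the 5 comparisons. Hotairm1, a noncoding RNA that is known from human myeloid cells, had 46.7 and 37.6 in GFP osteogenic libraries, against 50.1 and 42.5 in GFP growth libraries, and was not called either. In the GFP response 3 of 8 tested genes inside HoxA and 2 of 6 inside HoxB were called, all lower, against 10.6% of all genes. In THOC5 against GFP osteogenic cells 3 of 8 and 2 of 6 were called, all higher, against 11.3% of all genes.

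**Figure D4:**
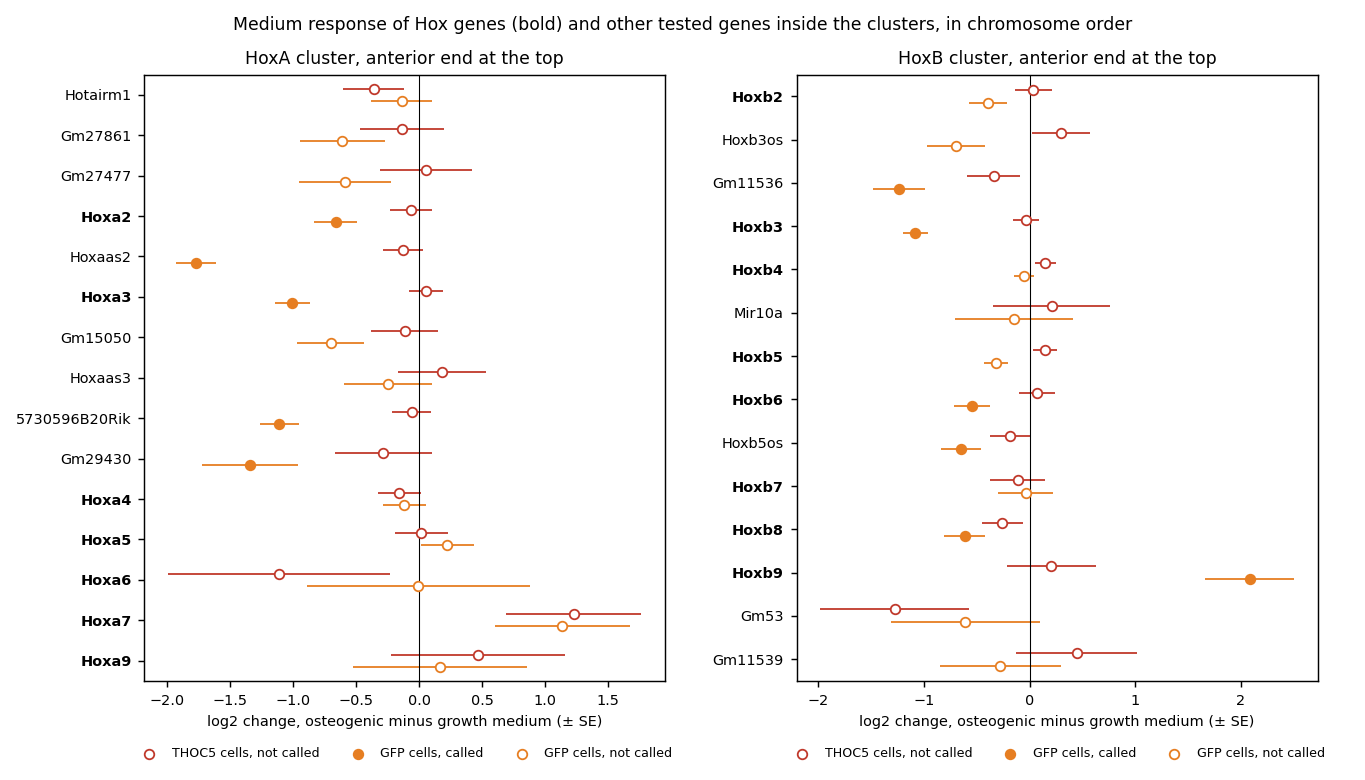
Log2 change in osteogenic minus growth medium (horizontal axis, ± SE) in THOC5 cells and GFP cells, for tested genes inside HoxA and HoxB from the anterior end (top) to the posterior end, with Hox genes in bold and filled points for adjusted p under 0.05. In GFP cells, Hoxaas2 (-1.77), Hoxa3 (-1.01) and 5730596B20Rik (-1.11) lie to the left in HoxA, and Gm11536 (-1.23) and Hoxb3 (-1.08) in HoxB, with Hoxb9 (2.08) alone on the right among the filled points.

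Hoxaas2 starts 843 bases from the start of Hoxa2, on the other strand, and both fell in GFP cells. The Hoxa2 promoter window of RefSeq is therefore shown, from 250 bases before to 50 after the start (GRCm38.p6, chr6:52164782-52165081, minus strand). The capitals mark the reverse complement of TGATNNAT, a consensus bound by PBX and HOX proteins together.
Hoxa2: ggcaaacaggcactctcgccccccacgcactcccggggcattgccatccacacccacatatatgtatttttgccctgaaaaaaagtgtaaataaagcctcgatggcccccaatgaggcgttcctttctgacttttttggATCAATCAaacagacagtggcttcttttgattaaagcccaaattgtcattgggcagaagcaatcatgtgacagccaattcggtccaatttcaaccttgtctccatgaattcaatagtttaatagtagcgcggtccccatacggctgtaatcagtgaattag
RefSeq's table held a promoter for 10 of the 19 members. TGATNNAT occurred on either strand in 3 of these 10 windows (Hoxa2, Hoxb8 and Hoxb1) and in 8.85% of 32851 windows of all genes. TATAAA occurred in 2 of 10, against 13.6% of all windows, and GGGCGG in 3 of 10, against 35.7%. CACGTG occurred in 1 of 10, against 7.15%. The motifs do not overlap one another in the Hoxa2 window, which holds only the first. The ratio of observed to expected CpG had a median of 0.591 over the Hox windows, against 0.384 over all windows. A match describes these letters and was not tested as a binding site.

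Genes that act with, maintain or induce Hox genes were taken from lists chosen by function. The cofactor list held 10 tested genes, which were PBX, MEIS and PKNOX genes and Hmbox1, which is not in these families of Hox partners. In GFP cells in osteogenic medium 2 were lower and 0 higher, and 3 were higher and 0 lower in THOC5 than in GFP osteogenic cells. These are 20% and 30% of the list, against 20.8% and 22% of all genes. Pknox2, a partner of PBX proteins, changed by -0.78 in GFP cells (limma adjusted p = 0.0018). Its groups did not overlap in GFP cells. Pknox2 and Pbx2, a DNA-binding partner of Hox proteins, were higher in THOC5 than in GFP osteogenic cells, by 0.61 and 0.39 on the log2 scale. Meis1, another partner, was not called, with 490 and 487 in GFP osteogenic libraries, against 548 and 558 in GFP growth libraries.

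The next list held genes of retinoic acid metabolism and signalling, Cdx1 and Cdx4 with 2 reads each, and Gdf11. Of its 17 tested genes, which included neither Cdx gene, 1 was higher and 6 were lower in GFP cells in osteogenic medium. The 1 higher was Gdf11, and the median log2 change was -0.34. In THOC5 against GFP osteogenic cells 6 were higher and 1 lower, with a median of 0.42. The list had 41.2% of its genes called in each comparison, against 20.8% and 22% of all genes and 33.4% and 35.6% of those with a mean of at least 10. Dhrs3, which returns retinal to retinol, had 103 and 148 normalized counts in GFP osteogenic libraries, against 338 and 264 in GFP growth libraries (log2 change -1.27, limma adjusted p = 0.000424). Both osteogenic libraries lay below both growth libraries. Gdf11, a ligand that promotes posterior Hox expression in the mouse embryo, had 259 and 233 in GFP osteogenic libraries, against 160 and 141 in GFP growth libraries (log2 change 0.71, limma adjusted p = 0.0036).

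Polycomb genes moved in both directions. Of 34 tested, 5 were higher and 4 lower in GFP cells in osteogenic medium, with a median of 0.05, and 3 were higher and 9 lower in THOC5 than in GFP osteogenic cells. These are 26.5% and 35.3% of the list, against 20.8% and 22% of all genes and 33.4% and 35.6% of those with a mean of at least 10. Yaf2, a subunit of variant Polycomb repressive complex 1, rose by 0.81 in GFP cells (limma adjusted p = 0.000424), Rnf2, its ubiquitin ligase, by 0.57 (limma adjusted p = 0.0032), and Eed, a core subunit of Polycomb repressive complex 2, by 0.49 (limma adjusted p = 0.0108). Of 26 tested Trithorax and demethylase genes, 5 were higher and 6 lower in GFP cells, and 8 were higher and 4 lower in THOC5 than in GFP osteogenic cells, or 42.3% and 46.2% of the list against the same shares of all genes. Wdr5 and Dpy30, subunits shared by the H3K4 methyltransferase complexes, rose by 0.73 and 0.71 in GFP cells, and Setd1b, a catalytic subunit, fell by 0.61.

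Of 56 tested other positional transcription factors, 5 were higher and 13 lower in GFP cells in osteogenic medium, and 12 were higher and 4 lower in THOC5 than in GFP osteogenic cells. These are 32.1% and 28.6% of the list, against 20.8% and 22% of all genes and 33.4% and 35.6% of those with a mean of at least 10. Among the 5 higher, Lmx1b had 10 reads over all 8 libraries and Shox2 had 24. Lmx1b reached 1 normalized count only in the GFP osteogenic libraries, with 5.19 and 2.68, so it was tested only through them. Prrx1, a homeobox gene of limb and facial mesenchyme, had 2848 and 3662 normalized counts in GFP osteogenic libraries, against 6024 and 6914 in GFP growth libraries, a 2.00-fold lower level (limma adjusted p = 0.000171). Six5 changed by -1.52, and Tbx18, a marker of mural cell lineages, by -0.90. Tbx20, a T-box gene of the developing heart, had 176 and 172 in GFP osteogenic libraries, against 79.2 and 82.4 in GFP growth libraries (log2 change 1.10, limma adjusted p = 0.000393). The groups did not overlap for any of these genes. No member of the cofactor, retinoic acid, Polycomb, Trithorax or positional lists was called in the medium response of THOC5 cells or between THOC5 and GFP cells in growth medium. The list of antisense and long RNAs of the clusters, which held Hoxaas2, 5730596B20Rik and Hoxb5os, had 9 tested members, of which 3 were lower in the GFP response, against 10.6% of all genes, and 3 higher in THOC5 than in GFP osteogenic cells, against 11.3% of all genes.

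Sums of cell type markers also differed between the groups. The summed level of 10 smooth muscle markers was 25928 to 28003 normalized counts in THOC5 osteogenic, 12093 to 14004 in GFP osteogenic, 31952 to 32690 in THOC5 growth and 25327 to 29661 in GFP growth libraries. Acta2 made up most of this sum, with a mean of 10332 in GFP osteogenic and 21362 in GFP growth libraries. Of these 10 markers 8 were called lower in GFP cells in osteogenic medium, against 10.6% of all genes. Des and Synpo2 were not called, with means of 22.4 and 49.3 in GFP osteogenic, against 9.98 and 50.1 in GFP growth libraries. The sum of 7 adventitial fibroblast markers was 18725 to 19791 in THOC5 osteogenic, 6653 to 9199 in GFP osteogenic, 20337 to 21192 in THOC5 growth and 16691 to 19096 in GFP growth libraries, and 3 of 7 were called lower in GFP cells in osteogenic medium, against the same share. Both sums were lowest in the GFP osteogenic libraries. Dcn made up most of the fibroblast sum, with a mean of 4613 in GFP osteogenic and 13283 in GFP growth libraries. Ly6a did not fall, with means of 2276 and 2010. Dpt was under 3 reads in every library.

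The macrophage sum of 7 markers was 961 to 1139 in THOC5 osteogenic, 682 to 700 in GFP osteogenic, 1051 to 1231 in THOC5 growth and 950 to 1182 in GFP growth libraries, with Ptprc and Adgre1 under 3 reads in every library. The endothelial sum of 5 markers was 84.5 to 87.2, 37.6 to 56.2, 91.7 to 121 and 75.8 to 117 in the same order of groups, with Erg under 3 reads in every library and Cdh5 and Emcn not analysed here. The Schwann cell sum of 4 markers was 814 to 881, 478 to 568, 766 to 858 and 791 to 887. These sums too were lowest in GFP osteogenic libraries, but the members of the endothelial and macrophage lists did not move together. In the endothelial list Vwf had 12.1 and 9.84 in GFP osteogenic libraries, against 99.1 and 58.5 in GFP growth libraries, and was called lower. Kdr had 25.1 and 20.6, against 9.32 and 9.31, and was not called. In the macrophage list Cd14 and Lyz2 were called lower, and Cd68 was called higher, with 246 and 244 against 167 and 165. In the Schwann cell list all 4 tested markers had a log2 change below 0 in the GFP response. Only Mbp of that list was called, lower, with 469 and 552 against 773 and 853. The sum of 5 striated muscle markers was 47.9 to 57.2, 90.3 to 113, 50.2 to 58.3 and 51.8 to 68.8, with Ckm under 3 reads in every library, and was highest in GFP osteogenic libraries. The mesothelial sum of 5 markers was 505 to 565, 383 to 520, 258 to 486 and 355 to 666, with Lrrn4 under 3 reads, and overlapped between the groups. Krt19 made up most of it. Of the 4 tested mesothelial markers, 2 were called lower and 0 higher in the GFP response, against 10.6% of all genes lower. They were Wt1 and Upk3b, each with a log2 change of -1.69, and Upk3b had 47 reads in all. In THOC5 against GFP osteogenic cells 2 of the 4 were called higher and 0 lower, against 11.3% of all genes higher. The part of cell makeup in the Hox results was not tested.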

How the data were processed

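Polyadenylated RNA from 8 libraries of primary mouse vascular smooth muscle cells was analysed, with groups taken from the sample titles and table columns matched through the labels' descriptions, so that 0 per-sample columns went unused. RNA immunoprecipitation data named in the series design were not analysed here. Per the file headers, the authors deposited 1 signal per gene and library, a normalized count, together with a log2 fold change, its standard error and an adjusted p-value for each of their comparisons, and a test statistic, here given the unit score. Multiplying the deposited values by 1 factor per library gave whole reads for 100% of values, within 1e-06. The submitters' processing notes name FastQC, Bowtie2, MACS2, SAMtools and mm10 without versions or roles. The read counter and its gene annotation were not given in the sources used here. The library kit did not mark strand, per the labels' protocols.

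limma 3.58.1 (R 4.3.3, trend option) was fitted to log2(normalized count + 1) of the genes that reached 1 in 2 or more libraries, over all 8 libraries in 4 groups without a block, leaving 4 residual degrees of freedom. It gave 5 contrasts, each with Benjamini-Hochberg adjustment over all genes and a threshold of 0.05. The written design foresaw counts or per-million values, and the test for normalized values was used because the table held size-factor-normalized counts. edgeR 4.0.16 and DESeq2 1.42.0 on the recovered reads were alternatives, beside other pseudocounts, filters, scalings, a replicate block and leaving out each library. The fit was tested on simulated data. Hox genes were named where called or among the 3 highest per kilobase in their cluster, and other lists gave up to 3 called genes per contrast by smallest p, but some genes and sequences are not reported here. Members, lists and tests were chosen with earlier results of these data known. Gene models came from GENCODE M21 (GRCm38), promoters from RefSeq (GRCm38.p6).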

Additional observations from a re-analysis of the deposited data

Results flagged for a closer look

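The medium response differed between THOC5 and GFP cells, by the interaction of limma's fit, for 2 Hox genes and 13 other genes named above or chosen from the lists by the same rule. Each value is the response of THOC5 cells minus that of GFP cells on the log2 scale. It was 1.06 for Hoxa3 and 1.05 for Hoxb3, and for the transcripts inside HoxA 1.64 for Hoxaas2 and 1.05 for 5730596B20Rik. Among other positional factors it was 1.00 for Prrx1, 1.43 for Six5 and -1.06 for Tbx20. Among genes of the retinoic acid list it was 1.33 for Dhrs3 and -0.81 for Gdf11. Among Polycomb genes it was -1.04 for Yaf2, -0.64 for Rnf2 and -0.63 for Eed. Among Trithorax genes it was -0.71 for Wdr5, -0.73 for Dpy30 and 0.64 for Setd1b. The interaction was called for 9.22% of all genes tested. Of 17 alternative fits, the call was lost in 9 for Eed, 8 for Rnf2 and Gdf11, and 7 for Dpy30. It was lost in 6 for Wdr5, Setd1b and 5730596B20Rik, and in 2 to 4 for the other genes of this paragraph. For every gene these included the fits without 1 GFP growth library.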

How the results depend on the processing

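No named result reversed its direction. For the called Hox genes, 268 alternative values were computed over 15 pairs of gene and comparison, of which 201 kept their call and 67 lost it. Of 957 values of other named genes, 832 kept their call and 125 lost it. The count of 6 Hox genes called in the GFP medium response ranged from 2 to 6 when 1 library was left out. The count of 7 in THOC5 against GFP cells in osteogenic medium ranged from 3 to 5, was 3 when every gene with a value above 0 entered the fit, and was 3 with libraries scaled to totals. The interaction count of 2 ranged from 0 to 2. The counts of 0 in the medium response of THOC5 cells and between THOC5 and GFP cells in growth medium stayed 0 in the fits without 1 library. The cause of these differences was not tested. Hoxb8 and Hoxb6 lost their call in the GFP response in 13 and 10 of 18 alternatives, and Hoxa2 in 4. In THOC5 against GFP osteogenic cells Hoxa2 lost its call in 11, Hoxb6 in 7 and Hoxb5 in 5. The Hoxb9 interaction passed with a pseudocount of 5. It also passed under a filter on the mean, which Hoxb9 met only through its GFP osteogenic values. With the replicate number as a block, 6, 7 and 2 Hox genes were called in the GFP response, in THOC5 against GFP osteogenic cells and in the interaction, with Hoxb5 in place of Hoxb8 in the GFP response. Differences between replicates 1 and 2 correlated between groups from -0.12 to 0.25 over 13253 genes. The value of 0.25 was between THOC5 growth and GFP growth libraries, and the other pairs of groups reached at most 0.04. The labels do not say whether a number marks libraries made together. The 6 members with a mean under 10 normalized counts had 2 to 24 reads over all 8 libraries, and the 3 of them that were tested were not called in the 5 comparisons.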
